A study of Mus musculus with 8 samples.

Results

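The 29 genes described here encode the cell's machinery for making cholesterol and fatty acids, with its regulators and a pair of lipid carriers. They were taken as a list of gene symbols, with no cutoff on a measured value. Earlier results of these data were known when the genes were chosen. All 29 were found among the 49584 features counted. The series asked what TEFM, the elongation factor of the mitochondrial RNA polymerase, does in mitochondrial gene expression. Crude mitochondria were prepared from hearts of 4 control and 4 knockout mice, and their RNA was sequenced. Controls are L/L in the sample titles, with the genotype field Tefm +/+, and are taken here as animals with loxP-flanked Tefm alleles and no cre. Knockouts are L/L, cre, with the genotype field Tefm -/-. Cre was expressed from the promoter of muscle creatine kinase, which works in muscle fibres and heart muscle cells, so that other cells of the heart keep Tefm. No source used here gives the age or sex of the mice or says which exon was flanked.

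Cholesterol is built from acetyl-CoA. The mevalonate pathway turns it into isoprenoid units, which are joined to squalene, closed into the ring of lanosterol and trimmed in the endoplasmic reticulum to cholesterol. Fatty acids are built from the same acetyl-CoA through malonyl-CoA. In heart muscle, which burns fatty acids more than it makes them, malonyl-CoA is also known as an inhibitor of fatty acid entry into mitochondria. The transcription factors SREBP-1 and SREBP-2 switch on genes of both routes. Their precursors sit in the endoplasmic reticulum, where SCAP escorts them to the Golgi for cleavage when sterols are low and the INSIG proteins hold them back when sterols are high.

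Libraries held 26268804 to 27403415 counts in controls and 21108165 to 25393933 in knockouts. Genes of mitochondrial DNA (mtDNA) took 72.3% to 74.0% of the counts in controls, 59.3% in knockout 1 and 38.7% to 44.2% in the other 3 knockouts. Values below are CPM, counts per 1000000 on the TMM scale, which sets each library by its typical gene. On this scale the median log2 difference of all tested genes was -0.01. With library totals in place of TMM, the log2 differences moved up, by 0.99 at the median gene. A rise or fall below is therefore relative to other nuclear genes. Tefm itself held 106 to 144 counts in controls and 166 to 245 in knockouts, with a log2 difference of 0.14 (SE 0.11, edgeR adjusted p = 0.324), so the whole-gene count does not show the deletion, and the groups are named as labelled. Among 7 cardiomyocyte markers, 6 fell on the TMM scale, and their summed level was 15279 to 16099 CPM in controls and 6931 to 10959 CPM in knockouts. All 4 control and all 4 knockout preparations thus held heart muscle RNA. In such bulk samples, fewer cells of a type and less RNA per cell cannot be told apart, nor can a change of an mRNA in the heart from a change in how much of it comes along with mitochondria.

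Of the 29 genes, all 29 passed the filter on low counts, 8 rose and 7 fell in knockouts, and 14 did not pass the test (edgeR's quasi-likelihood test, adjusted p under 0.05 over 17891 genes). These 15 calls are 51.7% of the genes, where 50.0% of all tested genes were called, 26.1% higher and 23.9% lower. The share is thus near that of all genes. For 8 genes every knockout was above every control and for 4 every knockout was below. Over all tested genes the groups were apart for 45.4%, with 23.9% above and 21.5% below. The median log2 difference was 0.01, and the median of its size 0.43, beside 0.38 over all tested genes. With library totals, 22 of the 29 were called higher by edgeR and 0 lower, since all 29 log2 differences were then positive. The 7 genes that fell on the TMM scale had values from 0.09 for Hsd17b7 to 0.66 for Sc5d. That scaling called 81.3% of all tested genes, 78.6% higher and 2.68% lower. The genes moved up by similar but not equal amounts, from -0.84 to 0.09 for Hsd17b7 and from 0.92 to 1.94 for Msmo1. A ratio of the counts of 2 genes within a library does not depend on the scaling. Of the 15 calls, 10 held when any 1 library was left out (Lss, Cyp51, Msmo1, Scap and Acaca higher, Fdft1, Hsd17b7, Sc5d, Insig1 and Vldlr lower). Without knockout 1, which lay nearest to the controls in its mtDNA share, 8 genes were called higher and 9 lower, where 52.2% of all genes were called (26.6% higher, 25.6% lower). DESeq2 called 7 higher and 6 lower, with 36.2% of all genes called (19.4% higher, 16.8% lower). That share is over 23659 genes in place of 17891, so it is not directly comparable with the share from edgeR.

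**Figure D1:**
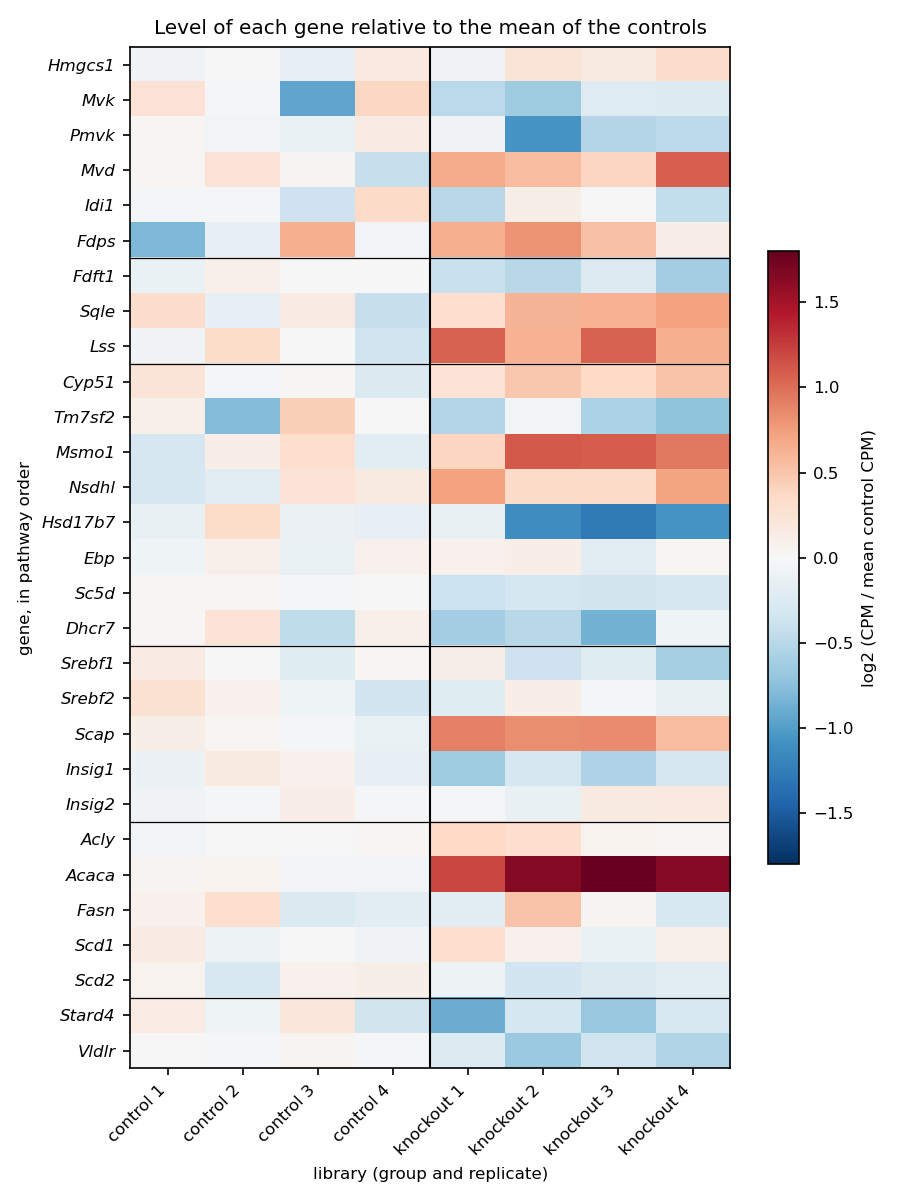
Level of the 29 genes in each of the 8 libraries, as the log2 of its CPM over the mean CPM of the 4 controls (colour), in pathway order from mevalonate to lipid transport with lines between roles. Acaca, Msmo1, Lss and Scap stand out as higher in all 4 knockouts and Hsd17b7 as lower in knockouts 2 to 4, on the TMM scale (the Hsd17b7 difference was 0.09 with library totals).

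**Figure D2:**
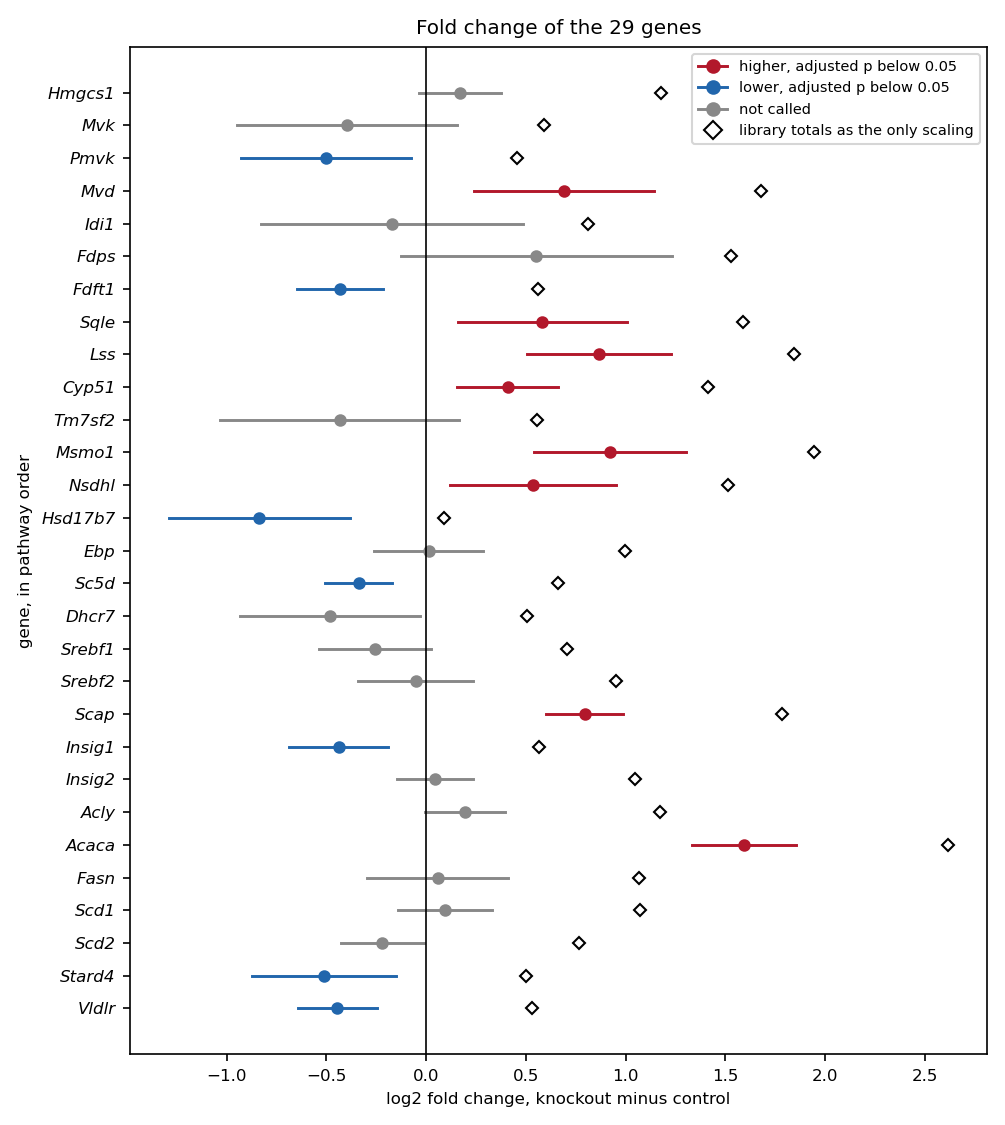
Log2 difference, knockout minus control, of the 29 genes on the TMM scale with 95% intervals from edgeR, coloured by call and ordered by role, and open diamonds with library totals as the only scaling. Acaca lies far to the right at 1.59, and every gene left of 0 on the TMM scale has its diamond to the right of it.

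Promoter sequences were examined apart from the counts. Genes of sterol synthesis are known to pair a site for SREBP, the sterol regulatory element, with a CCAAT box, the site of the factor NF-Y. Of the 29 genes, 23 had an entry in a table of RefSeq promoter windows (GRCm38.p6, 250 bases before to 50 after a start site). Fdft1, Fdps, Sqle, Scd1, Scd2 and Stard4 had none. The pentamer CCAAT, searched on both strands, was found for 21 of the 23 genes (91.3%), beside 41.1% of all 27025 genes with windows and 41.9% of the 10662 tested genes among them. Counted by window, 22 of the 32 windows of these genes (68.8%) held it, against 37.4% of all windows. It was found for 5 of 7 genes that rose, 5 of 5 that fell and 11 of 11 that were not called. The 2 genes without it were Acaca and Scap, both of which rose. A match is a description of letters and not of a site in use. The 4 windows that follow are shown because they hold the patterns in turn. Msmo1, which rose, and Hsd17b7, which fell, have 3 matches each to CCAAT. Hmgcs1 has an exact match to the sterol regulatory element as well, and Acaca has a match to neither. Capitals mark the matches to CCAAT, which reads ATTGG on the other strand, and to the sterol regulatory element, and each is read 5′ to 3′ on the gene's strand. The windows are chr8:64733529-64733828 (minus strand), chr1:169969156-169969455 (minus), chr13:119690101-119690400 (plus) and chr11:84195188-84195487 (plus), in the order printed.
Msmo1: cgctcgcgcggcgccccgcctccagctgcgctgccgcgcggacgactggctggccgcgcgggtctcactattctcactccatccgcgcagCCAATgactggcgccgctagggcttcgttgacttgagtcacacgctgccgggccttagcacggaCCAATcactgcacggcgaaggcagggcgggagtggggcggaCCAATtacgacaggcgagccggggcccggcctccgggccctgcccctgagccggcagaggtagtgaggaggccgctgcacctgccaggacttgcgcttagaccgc
Hsd17b7: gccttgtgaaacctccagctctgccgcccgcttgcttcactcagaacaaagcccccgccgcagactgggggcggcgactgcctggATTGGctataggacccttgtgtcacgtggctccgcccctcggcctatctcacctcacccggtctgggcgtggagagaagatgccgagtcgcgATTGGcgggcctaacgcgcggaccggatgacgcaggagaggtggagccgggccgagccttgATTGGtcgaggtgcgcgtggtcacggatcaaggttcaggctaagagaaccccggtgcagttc
Hmgcs1: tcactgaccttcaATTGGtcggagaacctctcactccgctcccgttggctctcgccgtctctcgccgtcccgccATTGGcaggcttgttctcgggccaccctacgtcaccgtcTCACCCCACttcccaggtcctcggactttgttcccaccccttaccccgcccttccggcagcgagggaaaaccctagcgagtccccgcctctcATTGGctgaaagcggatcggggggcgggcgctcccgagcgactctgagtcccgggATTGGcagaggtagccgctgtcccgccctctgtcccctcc
Acaca: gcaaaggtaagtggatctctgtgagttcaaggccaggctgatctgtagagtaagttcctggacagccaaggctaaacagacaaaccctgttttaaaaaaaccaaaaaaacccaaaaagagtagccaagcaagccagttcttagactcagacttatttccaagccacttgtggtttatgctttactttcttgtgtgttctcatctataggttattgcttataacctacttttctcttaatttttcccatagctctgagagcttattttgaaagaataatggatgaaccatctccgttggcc
In Msmo1 the matches begin 160, 96 and 55 bases before the start site, and in Hsd17b7 165, 73 and 12 bases before it. The sterol regulatory element was searched as TCACNCCAC on both strands. The only gene of the 23 with an exact match was Hmgcs1, as TCACCCCAC 137 bases before the start (1.44% of all genes have one). Near matches, such as TCACCTCAC in the Hsd17b7 window, were not counted. A gene without a match is therefore not shown to lack the element. The element of ATF4, a factor of the stress response, was searched as TGATGNAA on both strands. It was found for Idi1, Insig2 and Vldlr, 3 of 23 genes, against 4.51% of all genes with windows and 2.74% of the tested genes among them. A gene with several windows, such as Insig2 or Vldlr, has more places for a match. The start site of the Acaca window lies 65766 bases inside the annotated gene, which has several promoters, so the other starts were not searched.

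Of the 6 genes of the mevalonate steps, Mvd rose, Pmvk fell and 4 were not called. Mvd encodes the decarboxylase that yields isopentenyl diphosphate and lies at chromosome 8, 122433601 to 122443422 (GRCm38, minus strand). Controls had 1.42, 1.68, 1.44 and 1.05 CPM and knockouts 2.22, 2.05, 1.82 and 2.93 CPM. Every knockout was above every control, and the log2 difference was 0.69 (SE 0.21, a fold of 1.61, adjusted p = 0.0138). Without control 4 its adjusted p was 0.0513. Pmvk encodes phosphomevalonate kinase, the step before Mvd. It had 2.74, 2.62, 2.49 and 2.99 CPM in controls and 2.60, 1.302, 1.88 and 1.95 CPM in knockouts, where knockout 1 lay within the controls. Its log2 difference was -0.50 (SE 0.20, adjusted p = 0.0476), and this call rests on single libraries, since leaving out any library other than knockout 1 gave an adjusted p of 0.0630 to 0.128.

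Hmgcs1, which makes HMG-CoA at the head of the pathway, was the highest of the 6 per exon length. It had 17.3 ± 1.67 CPM in controls and 19.4 ± 2.11 CPM in knockouts (SD, n = 4 each), and its log2 difference of 0.17 (95% interval -0.04 to 0.38) did not pass the test (adjusted p = 0.161). Without knockout 1, whose 16.6 CPM is the lowest of its group, the difference was 0.23 with an edgeR adjusted p of 0.0284. Hmgcs1 shares 557 exon bases (12.1%) with the antisense gene Gm48342 on the other strand, for which no counts were available. Mvk, mevalonate kinase, had 1.49 ± 0.519 CPM in controls and 1.139 ± 0.153 CPM in knockouts, with an interval from -0.95 to 0.15. Without control 3, the lowest control, its difference was -0.61 with an adjusted p of 0.0367. Idi1, the isomerase of isopentenyl diphosphate, and Fdps, which joins the isoprenoid units to farnesyl diphosphate, were near the lower limit of what the counts resolve. Idi1 held 6 to 11 counts in controls and 8 to 16 in knockouts, and Fdps 5 to 13 and 16 to 28. The interval for Fdps ran from -0.13 to 1.23, so a difference was not detectable at this depth. Fdps also shares 1124 exon bases (26.7%) with the predicted gene Gm43738 on the same strand, which held 0 counts. The enzyme between Hmgcs1 and Mvk is not in the list and is not analysed here.

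At the squalene steps neighbours moved in opposite directions: Fdft1 fell, and Sqle and Lss, which follow it, rose. Fdft1 encodes squalene synthase, the first enzyme committed to sterols, at chromosome 14, 63145150 to 63179578 (minus strand). Its levels were 10.6, 12.3, 11.5 and 11.5 CPM in controls and 8.72, 8.07, 9.69 and 7.44 CPM in knockouts, with no overlap. The log2 difference was -0.43 (SE 0.10, adjusted p = 0.00243), or 0.741 times the control level. Fdft1 shares 774 exon bases (18.3%) with Ctsb on the other strand, a lysosomal protease gene with 11775 counts over the controls and 17336 over the knockouts. No source used here says how reads there were assigned, which makes the size of the Fdft1 difference uncertain.

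Lss encodes lanosterol synthase, which closes the rings, and lies at chromosome 10, 76531588 to 76557138 (plus strand). It rose from 2.74, 3.62, 2.88 and 2.24 CPM in controls to 6.003, 4.43, 6.001 and 4.51 CPM in knockouts. The lowest knockout stood above the highest control, and the log2 difference was 0.87 (SE 0.17, a fold of 1.82, adjusted p = 0.000688). Sqle encodes squalene epoxidase, a rate-limiting step. It had 1.74, 1.26, 1.55 and 1.05 CPM in controls and 1.72, 2.14, 2.16 and 2.30 CPM in knockouts, so knockout 1 fell just under the highest control. The log2 difference of Sqle was 0.58 (SE 0.20, adjusted p = 0.0238). Without control 2, control 4, knockout 3 or knockout 4 its adjusted p was 0.0509 to 0.0829.

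Among the 8 genes that trim lanosterol to cholesterol, 3 rose (Cyp51, Msmo1 and Nsdhl), 2 fell (Hsd17b7 and Sc5d) and 3 were not called. The 3 that rose encode enzymes of demethylation. Cyp51 removes the first methyl group of lanosterol, and Msmo1 and Nsdhl act in turn on the next ones. Msmo1, the sterol methyl oxidase, is at chromosome 8, 64718139 to 64733792 (minus strand). Its controls had 2.63, 3.51, 3.98 and 2.84 CPM and its knockouts 4.24, 6.95, 6.92 and 6.27 CPM. The groups did not overlap, although knockout 1 was close to the highest control, and the log2 difference was 0.92 (SE 0.18, a fold of 1.89, adjusted p = 0.000643). Cyp51 had 6.43, 5.34, 5.59 and 4.59 CPM in controls and 6.50, 7.67, 7.04 and 7.85 CPM in knockouts. The groups were apart by 6.43 against 6.50, and the log2 difference was 0.41 (SE 0.12, adjusted p = 0.0108). Cyp51 shares 166 exon bases (3.76%) with Akap9 on the other strand, which held 4965 counts over the controls and 7913 over the knockouts. How reads there were assigned is not given. Nsdhl, the decarboxylating dehydrogenase, had 1.16, 1.26, 1.72 and 1.59 CPM in controls and 2.37, 1.82, 1.82 and 2.33 CPM in knockouts. Its groups did not overlap, with a log2 difference of 0.54 (SE 0.19, adjusted p = 0.0335). That call was lost without control 1, control 2, knockout 1 or knockout 4 (adjusted p 0.0669 to 0.103), and DESeq2 gave 0.0643.

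Hsd17b7, the reductase that ends each demethylation round after Nsdhl, went the other way. It lies at chromosome 1, 169949535 to 169969241 (minus strand). Controls had 12.6, 17.4, 12.9 and 12.5 CPM and knockouts 12.7, 6.37, 5.74 and 6.65 CPM. Knockout 1 was thus at the control level, while the other 3 knockouts lay far below every control. The log2 difference was -0.84 (SE 0.21, adjusted p = 0.00445) with all libraries and -1.16 (adjusted p = 3.89e-07) without knockout 1. Knockout 1 is also the knockout whose mtDNA share of 59.3% is nearest to the controls, and whose cardiomyocyte markers (10959 CPM) and erythroid markers (730 CPM, against 143 to 359 in controls) are the highest of the knockouts. The part of these in the Hsd17b7 difference was not tested.

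Sc5d, the sterol desaturase near the end of the pathway, had the smallest spread relative to its mean among the 29 genes in both groups. It lies at chromosome 9, 42251595 to 42264256 (minus strand). Controls had 11.9, 11.9, 11.5 and 11.8 CPM and knockouts 8.99, 9.41, 9.32 and 9.52 CPM. With an SD of 0.185 in controls and 0.229 in knockouts, a log2 difference of -0.34 (SE 0.08, adjusted p = 0.00248) left a gap between the groups. The control spread was 1.58% of the mean, where counting alone would give about 6.68%. The closeness of these replicates is therefore not read as a trait of the gene. Ebp, the sterol isomerase before it, did not differ measurably (3.77 ± 0.279 CPM in controls, 3.81 ± 0.340 CPM in knockouts, interval -0.26 to 0.28). Dhcr7, the last reductase, had 1.66 to 2.72 CPM in controls and 1.27 to 2.17 CPM in knockouts, with a log2 difference of -0.48 (interval -0.93 to -0.03) and an adjusted p of 0.0707. Without control 3 or knockout 4 that p was 0.0325 or 0.0238. Tm7sf2, a sterol reductase acting after Cyp51, had 0.576 to 1.33 CPM in controls and 0.599 to 0.955 CPM in knockouts (interval -1.03 to 0.17). It shares 532 exon bases (12.1%) with Vps51 on the same strand, so its counts are uncertain.

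**Figure D3:**
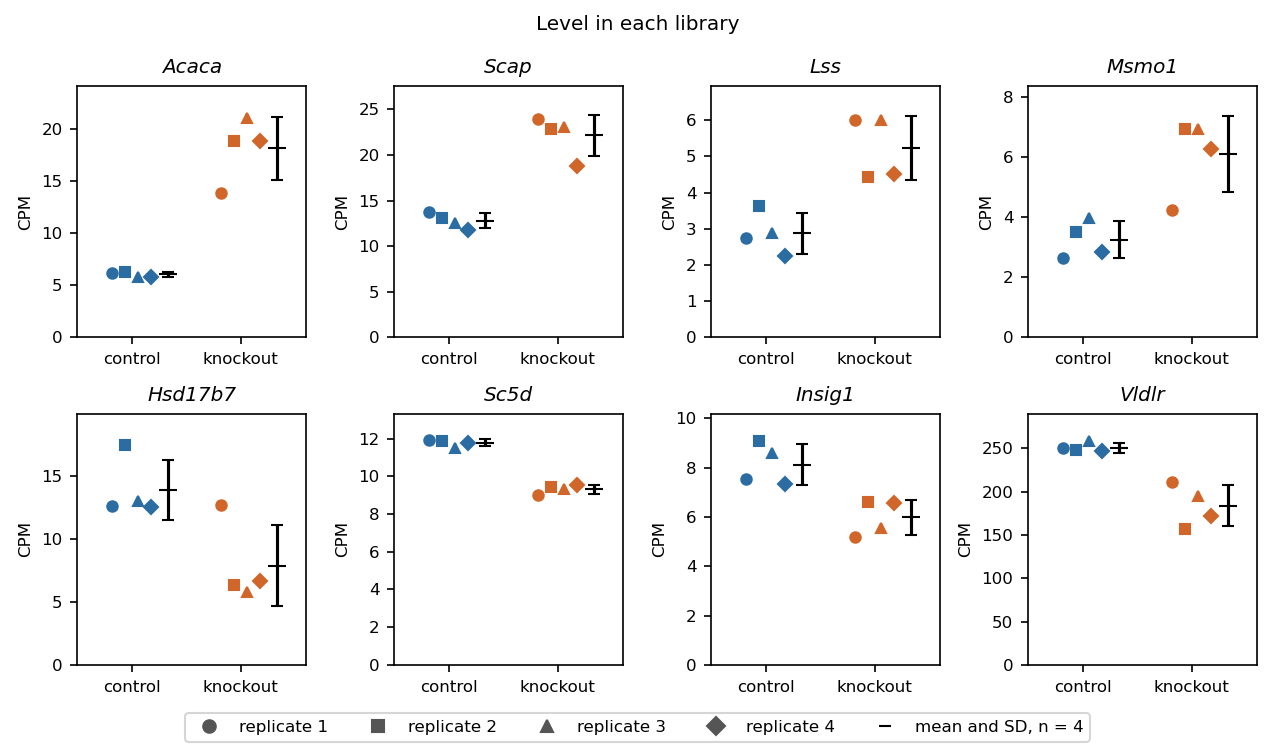
CPM on the TMM scale in each of the 4 control and 4 knockout libraries for Acaca, Scap, Lss, Msmo1, Hsd17b7, Sc5d, Insig1 and Vldlr, with the group mean and SD (n = 4) beside the points. For 7 of the 8 genes the groups do not overlap, while knockout 1 of Hsd17b7 sits among the controls. With library totals the 4 genes of the lower row had positive differences.

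Of the 5 regulators, Scap rose, Insig1 fell, and Srebf1, Srebf2 and Insig2 were not called. Scap encodes the escort of SREBP and is at chromosome 9, 110333288 to 110384950 (plus strand). Controls had 13.7, 13.05, 12.6 and 11.8 CPM and knockouts 23.9, 22.8, 23.1 and 18.8 CPM. All 4 knockouts were above all controls, and the log2 difference was 0.79 (SE 0.09, a fold of 1.73, adjusted p = 6.42e-06). Scap shares 985 exon bases (13.2%) with an unclassified transcript on the other strand, 5830462I19Rik, which held 146 counts over the controls and 390 over the knockouts. How reads there were assigned is not given, so the size of the Scap difference is uncertain. Insig1, an anchor that retains SCAP and is itself a known target of SREBP, is at chromosome 5, 28071363 to 28078662 (plus strand). It had 7.54, 9.07, 8.58 and 7.33 CPM in controls and 5.20, 6.60, 5.54 and 6.59 CPM in knockouts, again without overlap. The log2 difference of Insig1 was -0.44 (SE 0.12, adjusted p = 0.00602).

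Insig2, the INSIG form that does not depend on SREBP, had 16.7 ± 0.990 CPM in controls and 17.2 ± 1.78 CPM in knockouts (interval -0.14 to 0.24). Srebf2, the gene of SREBP-2, had 6.13 ± 1.09 and 5.89 ± 0.595 CPM (interval -0.34 to 0.24). Srebf1, the gene of SREBP-1, had 16.8, 15.3, 13.1 and 15.5 CPM in controls and 16.3, 11.7, 12.98 and 9.99 CPM in knockouts. Here too knockout 1 stood apart from the other knockouts and within the controls, and the log2 difference of -0.26 (adjusted p = 0.122) was -0.40 (adjusted p = 0.00354) without it. These values are mRNA levels, and the cleaved SREBP proteins were not measured.

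Ratios of related genes within a library do not depend on scaling. The log2 ratio of Insig1 to Insig2 was -1.08, -0.86, -1.08 and -1.15 in controls and -1.65, -1.20, -1.75 and -1.51 in knockouts. All 4 knockouts were below all controls, with a difference of -0.48 (SE 0.14), and the two-sided exact permutation test gave p = 0.0286, the smallest that 4 against 4 allows. Adjusted over the 3 ratios tested it was 0.0857. For Scd1 to Scd2 the difference was 0.30 (SE 0.10), with 3 of 4 knockouts above the controls (exact permutation p = 0.0571, adjusted 0.0857). For Srebf1 to Srebf2 it was -0.22 (SE 0.23), with 3 of 4 knockouts below the controls (exact permutation p = 0.371, adjusted 0.371). None of the 3 ratios passed the adjusted threshold with all 8 libraries. A lone ratio at the smallest exact p cannot fall below 0.0857 after this adjustment. Without knockout 1 the Insig1 to Insig2 difference was -0.44 and the Srebf1 to Srebf2 difference -0.40. Both then had the smallest exact permutation p possible, again 0.0286, and an adjusted p of 0.0429. That value is below 0.0857 only because both ratios reached the smallest p together, so it adds no evidence for Insig1 to Insig2. Scap to Insig1, a ratio chosen after its values were seen and therefore not tested, went from 0.66 ± 0.154 in controls to 1.89 ± 0.302 in knockouts (log2, SD, n = 4 each).

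**Figure D4:**
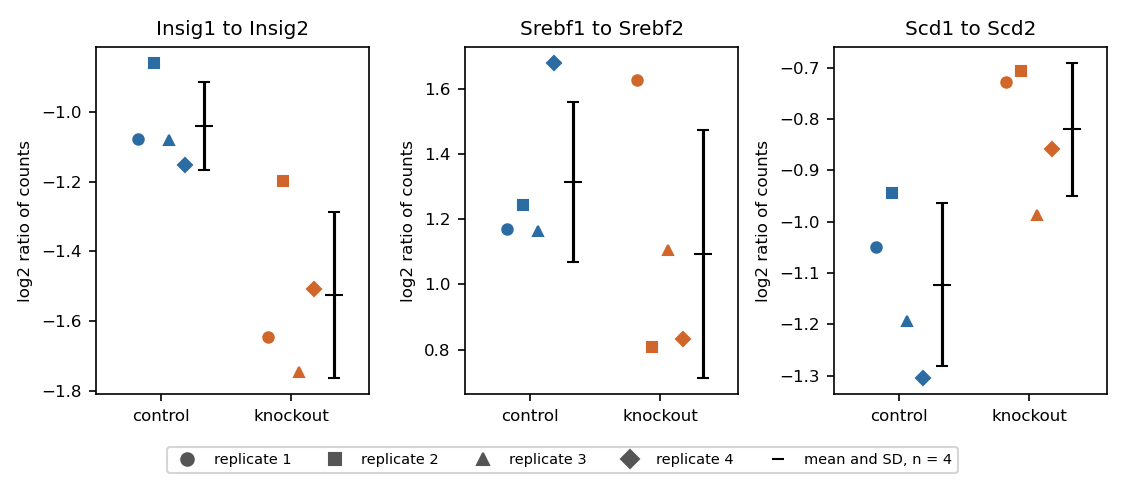
Log2 ratio of the counts of Insig1 to Insig2, Srebf1 to Srebf2 and Scd1 to Scd2 in each library, with the group mean and SD (n = 4). All 4 knockouts lie below the controls for Insig1 to Insig2, while knockout 1 is the highest knockout for Srebf1 to Srebf2.

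Acaca carried the largest difference of the list. It encodes acetyl-CoA carboxylase 1, the enzyme that makes malonyl-CoA for fatty acid synthesis, and spans chromosome 11, 84129672 to 84401651 (plus strand). Controls had 6.22, 6.29, 5.81 and 5.83 CPM and knockouts 13.9, 18.9, 21.1 and 18.9 CPM. Every knockout was above 2 times the highest control. The log2 difference was 1.59 (SE 0.12, a fold of 3.02, adjusted p = 1.39e-07), and 1.69 without knockout 1, again the lowest of its group. It was the only gene of the 29 called at 2-fold or more, where 14.0% of all tested genes were, and 6 of the 29 were called at 1.5-fold or more, against 29.8%.

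The other 4 genes of fatty acid synthesis did not pass the test. Acly, which supplies cytosolic acetyl-CoA from citrate, had 11.2, 11.6, 11.6 and 11.7 CPM in controls and 14.8, 14.2, 12.1 and 11.8 CPM in knockouts. Every knockout was above every control by as little as 11.7 against 11.8, and the log2 difference of 0.20 (SE 0.09) had an adjusted p of 0.0979, and of 0.0479 without knockout 4. Fasn, the fatty acid synthase that acts on the product of Acaca, had 14.7, 17.1, 11.6 and 12.2 CPM in controls and 12.04, 19.7, 14.4 and 11.5 CPM in knockouts. Its groups overlapped, with knockout 2 above every control and knockout 4 just below every control. The log2 difference was 0.06, with an interval from -0.30 to 0.41. Scd1 and Scd2, which place the first double bond in saturated fatty acids, had log2 differences of 0.09 (interval -0.14 to 0.33) and -0.22 (interval -0.43 to -0.01, adjusted p = 0.0732). Scd2 had an adjusted p of 0.0125 without control 2 and of 0.0241 without knockout 1.

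The log2 ratio of Acaca to Fasn went from -1.18 ± 0.203 in controls to 0.35 ± 0.348 in knockouts. Acacb encodes the second acetyl-CoA carboxylase, the form at the mitochondrial outer membrane that dominates in heart muscle. It fell from 125 to 85.6 CPM (log2 difference -0.55, SE 0.09, adjusted p = 0.00024, and 0.44 with library totals). The log2 ratio of Acaca to Acacb went from -4.37 ± 0.0649 to -2.24 ± 0.349, a difference of 2.13 (SE 0.18). Both ratios were chosen after their values were seen and were not tested. Adipocytes and hepatocytes are known for high levels of lipogenic genes. Of 8 adipocyte markers only Lipe, which muscle also expresses, passed the filter. The other 7 held 16 counts over all controls and 22 over all knockouts, and Ucp1 was at 0 in every library. The 4 hepatocyte markers held 7 counts over all controls and 55 over all knockouts. Their summed level was 0 to 0.158 CPM in controls and 0.376 to 0.490 CPM in knockouts. Summed fibroblast markers were 186 to 203 CPM in controls and 197 to 284 CPM in knockouts, with 2 of 5 called higher and 1 lower, and Schwann cell markers 2.41 to 3.95 and 2.87 to 3.56 CPM. The part of any of these cell types in the Acaca difference was not tested.

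Both lipid carriers fell. Vldlr encodes the receptor by which heart muscle takes up triglyceride-rich lipoproteins and is at chromosome 19, 27216484 to 27254231 (plus strand). Controls had 249.7, 247, 258 and 246 CPM and knockouts 211, 157, 195 and 172 CPM. The controls lay close together and all knockouts below them, with a log2 difference of -0.45 (SE 0.09, adjusted p = 0.00108), or 0.734 times the control level. Summed cardiomyocyte markers fell alongside, and their part in the Vldlr difference was not tested. Stard4, which carries cholesterol between membranes in the cytosol, had 4.90, 4.24, 5.15 and 3.54 CPM in controls and 2.41, 3.59, 2.77 and 3.66 CPM in knockouts. Its groups overlapped at control 4, with a log2 difference of -0.51 (SE 0.17, adjusted p = 0.0207). Without control 1, control 3 or knockout 3 the adjusted p of Stard4 was 0.0597 to 0.0694.

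To compare levels between genes, counts were divided by the length of each gene's exons and by the nuclear counts of the library, in units of 1000000 such counts. Vldlr was highest, at 66.3 ± 1.37 nuclear-scaled counts per kilobase in controls and 48.0 ± 4.76 in knockouts. Insig2 at 12.8 ± 0.728 and Hmgcs1 at 10.02 ± 0.952 came next in controls, and Fdps at 0.293 ± 0.118 and Idi1 at 0.327 came last. In the order of control levels, neighbouring genes had ranges that do not meet only below Vldlr, Insig2, Hmgcs1, Sc5d and Acly. Between all other neighbours the ranges met, so their order is not resolved. Acaca had a mean level per length of 0.942 ± 0.0478 in controls and 2.82 ± 0.520 in knockouts, Scap of 4.57 and 7.85, and Hsd17b7 of 7.25 and 4.03. The exon length takes in all annotated transcripts, 17074 bases for Acaca and 10787 for Lss, which lowers the level of genes with many long forms. The denominator sets the direction between groups: when divided by all counts, mtDNA included, Vldlr went from 17.7 to 25.6.

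**Figure D5:**
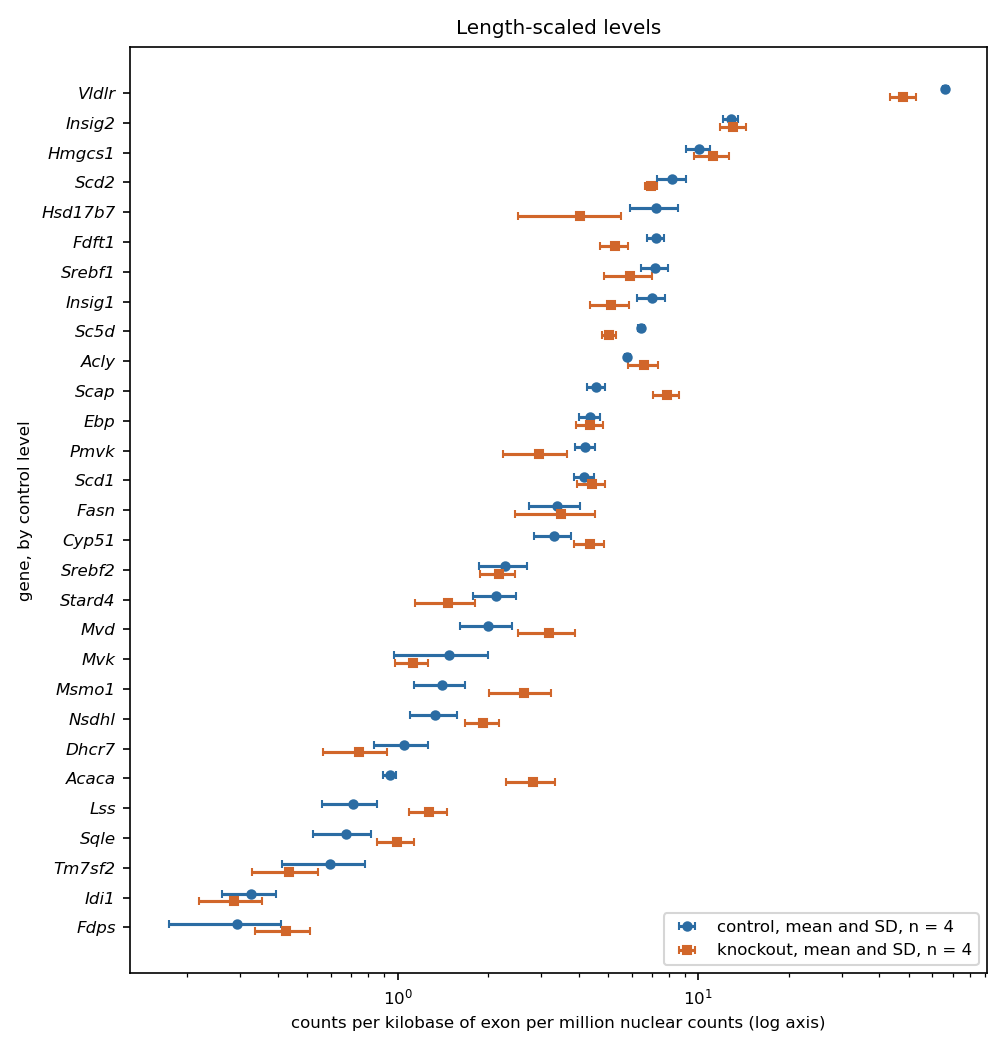
Level per exon length of the 29 genes in controls and knockouts, as nuclear-scaled counts per kilobase on a log axis, ordered by control mean. Points are group means and bars SD (n = 4), and Vldlr is well above the rest at 66.3, with Acaca moving from 0.942 to 2.82.

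Compared with the range of the 4 controls, knockout 1 had 10 genes above it, 7 below it and 12 within it. Knockouts 2, 3 and 4 had 13, 10 and 11 above, 10, 11 and 9 below, and 6, 8 and 9 within. Over all tested genes 35.3% to 36.4% were above and 35.4% to 35.8% below in each knockout. Knockout 1 was thus the library with the most of these genes at control level. The authors' deposited table gave log2 fold changes of the same sign for all 29 genes, no more than 0.06 from the values here. By its adjusted p, 13 of them passed 0.05 (7 higher, 6 lower), all 13 of them called here too.

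Genes around the listed ones gave a wider view of each route. Of 12 other genes of sterol synthesis, 11 were tested, 8 rose and 1 fell (81.8% called), with a median log2 difference of 0.38. Over all tested genes 50.0% were called, 26.1% higher and 23.9% lower. Por, the reductase that passes electrons to Cyp51 and squalene epoxidase, rose from 9.65 to 33.3 CPM (log2 difference 1.79, SE 0.12, adjusted p = 3.44e-08). Cyb5r3, which with its cytochrome feeds electrons to Msmo1, Sc5d and the desaturases, rose from 23.1 to 63.1 CPM (1.45, SE 0.09). Pgrmc1, a heme protein that binds P450 enzymes, rose 2.11-fold (log2 SE 0.11). These 3 partners also serve many other enzymes. Lbr, a second sterol reductase that is also a nuclear lamina receptor, fell by 0.42 (SE 0.10), and with library totals its difference was 0.56.

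Of 24 regulators of SREBP processing and lipid synthesis, 6 rose and 9 fell (62.5% called), with a median of -0.07. Mlxipl, which encodes the carbohydrate-responsive activator ChREBP, fell from 10.8 to 1.77 CPM (log2 difference -2.61, SE 0.17, adjusted p = 3.57e-08). Lpin1, a phosphatidate phosphatase that also restrains SREBP, fell from 105 to 29.3 CPM (-1.84, SE 0.10), and Fbxw7, the ubiquitin ligase subunit that marks nuclear SREBP for breakdown, from 49.2 to 20.8 CPM (-1.25, SE 0.10). All 3 had negative differences with library totals as well. Mbtps2, the protease that makes the second cleavage of SREBP, rose by 0.65 (SE 0.10), and Paqr3, a Golgi anchor of SCAP, by 0.84 (SE 0.13).

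In fatty acid synthesis and modification, 24 of 25 listed genes were tested, 8 rose and 5 fell, with a median of 0.00. The 54.2% called is near the 50.0% of all tested genes. Slc25a1, the citrate carrier that supplies Acly, rose by 0.79 (SE 0.20, adjusted p = 0.0054) with overlapping groups, and was chosen after its values were seen. Elovl1, an elongase, rose by 1.44 (SE 0.12), Fads3, a desaturase, by 1.38 (SE 0.08) and Me1, a source of NADPH, by 0.98 (SE 0.09). Tecr, the last enzyme of each elongation cycle, fell from 66.5 to 23.7 CPM (-1.49, SE 0.08, adjusted p = 4.65e-09). Thrsp, a small protein that acts on lipogenesis, fell by 0.95 (SE 0.21) and its groups overlapped. In uptake, trafficking and export of sterols, 18 of 20 genes were tested, 11 rose and 4 fell (83.3% called), with a median of 0.43. Tspo, an outer membrane protein of mitochondria that binds cholesterol, rose by 1.58 (SE 0.13), Npc2, which hands cholesterol on inside lysosomes, by 0.73 (SE 0.09), and Cyp27a1, the mitochondrial sterol hydroxylase, by 0.78 (SE 0.09). Npc1, the partner of Npc2, fell by 0.70 (SE 0.08), Cav1, the caveolin that binds cholesterol, by 0.67 (SE 0.10), and Gramd1b, a sterol carrier, by 0.58 (SE 0.09), and these 3 had positive differences with library totals. Over the 4 lists, 33 of 77 tested genes rose and 19 fell, 67.5% called beside 50.0% of all tested genes. The median log2 difference was 0.16, beside -0.01 over all genes. The lists were chosen with earlier results of these data known, so these shares describe the lists alone.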

How the data were processed

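Total RNA of crude heart mitochondria from 8 mice was extracted with a miRNeasy kit and made into TruSeq libraries for paired-end sequencing on a MiSeq, per the labels' protocols. Raw counts of reads per gene, as whole numbers, were deposited. Per the submitters' processing notes, which give no role or order, featureCounts, Bowtie2, bedtools and SAMtools 1.3.1 were used, with DESeq2 1.14.1, R 3.3.2 and the build mm10. No source used here gives the strandedness or how reads that match several genes were treated. The deposited normalized signal equals the count times 1 constant per library (largest relative deviation 4.75e-11) and was used for that check. The authors' deposited table gives log2 fold changes, p-values and their statistic (a score), used for comparison alone.

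Counts were tested with edgeR 4.0.16 in R 4.3.3 with genotype as the only term. Scaling was by TMM, genes were kept by filterByExpr at a minimum count of 10, and p-values of the two-sided quasi-likelihood test were adjusted by Benjamini-Hochberg over 17891 genes (threshold 0.05). The biological coefficient of variation was 11.3%. Library totals were 21108165 to 27403415 counts, and since reads carry no molecular identifiers, counting errors are lower limits. The series text describes separate mice. Replicate pairs differed by more than counting noise, and none was treated as a duplicate. Ratios were taken with 0.5 added to counts and compared by a two-sided exact permutation test over 70 relabelings. Levels per length used exons of GENCODE M21 on GRCm38, matched by gene identifier (23 of 29 versions equal). Promoter windows are from RefSeq. The scripts were tested on simulated data. Alternatives were RLE factors, library totals, nuclear genes alone, no filter, DESeq2 1.42.0, a replicate block, each library left out in turn, 5 added to counts for ratios, and all counts as the denominator of levels. Figures were drawn with matplotlib 3.10.9.

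All 29 listed genes are named, with full statistics for those called or without overlap between groups. From each of 4 lists of other pathway genes, up to 3 called higher and up to 3 called lower were named by smallest p (1 of them is not reported here), and other genes named are said to be chosen after their values were seen. The genes and lists were chosen with earlier results of these data known.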

Additional observations from a re-analysis of the deposited data

Results flagged for a closer look

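In 4 of 58 groups of 4 libraries (29 genes in controls and in knockouts), 1 library stood apart from the other 3 by Dixon's criterion, which chance meets in about 1 in 20 groups. Hsd17b7 was at 17.4 CPM in control 2, where the other controls were between 12.5 and 12.9 CPM. Hsd17b7 was also apart in knockout 1, at 12.7 CPM against 5.74 to 6.65 CPM in the other knockouts. Acly was at 11.2 CPM in control 1, against 11.6 to 11.7 CPM. Scd2 was at 13.8 CPM in control 2, against 17.6 to 18.1 CPM.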

How the results depend on the processing

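Scaling decides the direction of the falls. With library totals, 22 of the 29 genes were called higher and 0 lower, and 67 and 3 of the related genes. The log2 differences that were negative with TMM became 0.59 for Mvk, 0.46 for Pmvk, 0.81 for Idi1, 0.56 for Fdft1, 0.56 for Tm7sf2, 0.09 for Hsd17b7, 0.66 for Sc5d, 0.51 for Dhcr7, 0.71 for Srebf1, 0.95 for Srebf2, 0.57 for Insig1, 0.76 for Scd2, 0.50 for Stard4 and 0.53 for Vldlr. Over all genes, 14066 were then called higher and 480 lower, in place of 4669 and 4274. Of the 15 calls, 15 remained with RLE factors, with nuclear genes alone and with the replicate block. With no filter 14 remained (without Pmvk), where 30.3% of a wider set of 31307 genes were called. With DESeq2 13 remained (without Pmvk and Nsdhl).

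Leaving out 1 library gave 6 to 8 genes called higher and 5 to 9 called lower, and 26 to 34 and 17 to 21 of the related genes, where 44.1% to 52.2% of all tested genes were called. The differences near 0 changed sign there: Ebp ran from -0.03 to 0.08, Srebf2 from -0.16 to 0.05 and Fasn from -0.13 to 0.17. The Insig1 to Insig2 difference ran from -0.59 to -0.41, Srebf1 to Srebf2 from -0.40 to -0.10 and Scd1 to Scd2 from 0.24 to 0.36. Deviations of same-numbered mice were nearly uncorrelated (-0.014 to 0.050), which cannot show whether the mice were paired. The replicate block gave 8 genes called higher and 8 lower, Dhcr7 added, where 49.4% of all tested genes were called. Depth limits Idi1 and Fdps, with at most 28 counts in any library.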

Other observations

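A pair of related genes, chosen after their values were seen, rose further than any of the 29 listed genes and started from few counts. Lrp8, a receptor of the lipoprotein receptor family for apolipoprotein E and reelin, held 5, 0, 7 and 3 counts in controls and 17, 89, 85 and 76 in knockouts (0.200 and 2.02 CPM on average). Its log2 difference was 3.35 (SE 0.55, edgeR adjusted p = 0.00018), and knockout 1 was the lowest knockout. Elovl7, an elongase of long-chain fatty acids, held 4, 0, 2 and 6 counts in controls and 38, 44, 48 and 79 in knockouts, with a log2 difference of 3.35 (SE 0.46, edgeR adjusted p = 3.85e-05). All 4 knockouts were above all controls for both genes. Lrp8 is a close relative of Vldlr, which fell on the same scale (-0.45, and 0.53 with library totals).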
